A study of Mus musculus with 8 samples.

Results

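Endothelial cells line blood vessels, and 10 genes whose products mark them were followed here through RNA of mouse rib cartilage cells: Pecam1, Cdh5, Kdr, Flt1, Tek, Tie1, Emcn, Eng, Esam and Egfl7. They were chosen by name, with earlier results of these data known, and make up 10 of the 18501 genes in the deposited table. All 10 passed the filter on low counts that left 14359 genes for testing. The data are 8 sequencing libraries in 4 groups of 2. CT mutants carry a C>T base change at Mir140, CG mutants carry a mutation in the seed region of the 3p arm of the same miRNA, and each mutant has its own wild type group, called CT wild types and CG wild types below. The design text presents both mutations as ways of raising the 5p arm. All libraries came from CD1 mice 10 days old, and per the labels' protocols the rib cartilage was digested with collagenase and the cells were plated before RNA was taken, so any vessel cells in a library had passed through digestion and plating. Nothing in the labels ties the 2 libraries of a group to separate animals or cultures. Counts of a Y-linked gene, given below, differ between the 2 libraries in every group but the CG mutants, so in those 3 groups the libraries are not repeats of 1 RNA sample. For the CG mutants that gene does not settle it, but their 2 libraries differed most of any group. Chi-square per degree of freedom between replicates was 57.7 there, against 20.4 to 28.2 in the other groups. Every p-value below sets a difference only against the spread between these libraries, which may not be the spread between animals.

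As background, Mir140 is a miRNA gene best known from cartilage, where chondrocytes express it strongly. Hyaline cartilage is largely free of vessels, and endothelial cells are found in the perichondrium, in the marrow and in the tissue around the rib. The vascular endothelial growth factor (VEGF) receptors Kdr and Flt1 and the angiopoietin receptor Tek and its relative Tie1 receive the signals that make vessels grow and mature, while Cdh5, Pecam1 and Esam sit at the junctions between endothelial cells. Emcn is a sialomucin of capillary and venous endothelium, Eng is a co-receptor for ligands of the transforming growth factor beta family, and Egfl7 is a secreted protein of the vessel wall whose gene also holds Mir126a, a miRNA of endothelial cells. Both miRNAs are shown, since the first is the arm that the CG mutation hits and the second is encoded within a marker gene. The capitals mark bases 2 to 8, the seed, which pairs with targets, and the sequences are those of RefSeq for GRCm38.p6. The 3p arm of Mir140 lies at chr8:107551288-107551308 on the plus strand and that of Mir126a at chr2:26591402-26591423 on the plus strand.
mmu-miR-140-3p: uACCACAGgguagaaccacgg
mmu-miR-126a-3p: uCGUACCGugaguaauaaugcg

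The promoters of Emcn, Tek and Eng are shown because Emcn and Tek differed between the lines in both comparisons described below and Eng differed least. RefSeq promoter windows (250 bases before to 50 after the start of transcription, GRCm38.p6) were matched for 7 of the 10 genes by symbol, with 9 windows in all since Egfl7 has 3 starts. The capitals mark the core bound by ETS factors, a family that includes regulators of endothelial genes, searched as AGGAAG or CGGAAG on both strands. The windows lie at chr3:137340828-137341127 for Emcn, chr4:94739039-94739338 for Tek and chr2:32646345-32646644 for Eng, all on the plus strand.
Emcn: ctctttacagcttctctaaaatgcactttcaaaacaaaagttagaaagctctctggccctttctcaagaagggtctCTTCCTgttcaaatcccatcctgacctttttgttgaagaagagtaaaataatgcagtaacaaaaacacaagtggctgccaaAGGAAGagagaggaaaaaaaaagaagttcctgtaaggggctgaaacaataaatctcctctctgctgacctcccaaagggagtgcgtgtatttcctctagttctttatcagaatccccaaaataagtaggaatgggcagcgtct
Tek: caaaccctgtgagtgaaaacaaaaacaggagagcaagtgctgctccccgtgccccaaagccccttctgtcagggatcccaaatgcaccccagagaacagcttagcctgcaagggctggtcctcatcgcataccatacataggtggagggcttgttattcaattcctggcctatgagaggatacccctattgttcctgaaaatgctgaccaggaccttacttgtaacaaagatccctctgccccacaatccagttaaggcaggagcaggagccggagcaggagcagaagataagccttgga
Eng: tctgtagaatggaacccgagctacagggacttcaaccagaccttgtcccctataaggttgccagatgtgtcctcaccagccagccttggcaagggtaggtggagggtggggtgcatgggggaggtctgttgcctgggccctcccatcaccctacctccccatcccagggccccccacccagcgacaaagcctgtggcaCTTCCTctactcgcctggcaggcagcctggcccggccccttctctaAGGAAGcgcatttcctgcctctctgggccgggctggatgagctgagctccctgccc

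The ETS core was found in 6 of the 9 windows, and 46.5% of 32851 promoter windows of the same length held it. The Emcn window had 2 matches, whose first bases lie 174 and 93 bases before the start, and the Eng window had 2, at 52 and 6 bases before it. The windows of Tek and Kdr and 1 of those of Egfl7 had no match. TATAAA, searched on both strands, was found in 1 of the 9 windows, that of Flt1, against 13.6% of all windows, and the GATA-type AGATAA in 1 of the 9, that of Tek, against 11.2%. No window printed here held more than 1 of these motifs. The windows ranged in GC content between 41.0% for Emcn and 70.7% for Flt1, with a median of 52.7% over all windows.

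The libraries held 26536868 to 28678641 counts. Levels below are CPM, counts relative to library size, scaled by TMM, a normalization to the bulk of genes. The first principal component of log2 CPM took 64.5% of the variance and separated the lines. The second took 12.2% and set CG mutant replicate 1, at 47, apart from CG mutant replicate 2, at -8.4. Genes that define chondrocytes, such as Col2a1 and Acan, summed to 45560 to 66900 CPM in the CT line and 35080 to 60020 CPM in the CG line over 16 genes, so genes that define the labelled cell type were strongly expressed in every library. The 10 endothelial markers summed to 121.4 to 196.2 CPM in the CT line and 61.3 to 102.7 CPM in the CG line. None of them was at 0 in any library. In bulk RNA, fewer cells of a type and less RNA per cell cannot be told apart.

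Per transcript length, Eng stood highest of the markers, with a deposited FPKM (fragments relative to transcript length and library size) of 12.3 ± 2.33 (SD over all 8 libraries), above 70.9% of the genes in the table. Cdh5 followed at 5.44 ± 3.94 FPKM, then Egfl7 at 4.18, Emcn at 4.04, Pecam1 at 3.89, Flt1 at 3.52 and Esam at 2.78. Kdr, at 1.92 FPKM, Tie1, at 1.10, and Tek, at 0.581, were lowest, and Tek stood above 34.9% of genes. The order of Eng over Cdh5, and the order of Esam, Kdr, Tie1 and Tek, held in 8 of 8 libraries. The 5 genes between Eng and Esam were not ordered beyond their spread: Cdh5 exceeded Egfl7 in 6 of 8 libraries, Egfl7 exceeded Emcn in 6, Emcn exceeded Pecam1 in 6, Pecam1 exceeded Flt1 in 2 and Flt1 exceeded Esam in 7. The spread between libraries was unequal too. Cdh5 varied 13.9-fold in CPM between its lowest and highest library, Flt1 2.60-fold and Eng 1.56-fold.

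**Figure D1:**
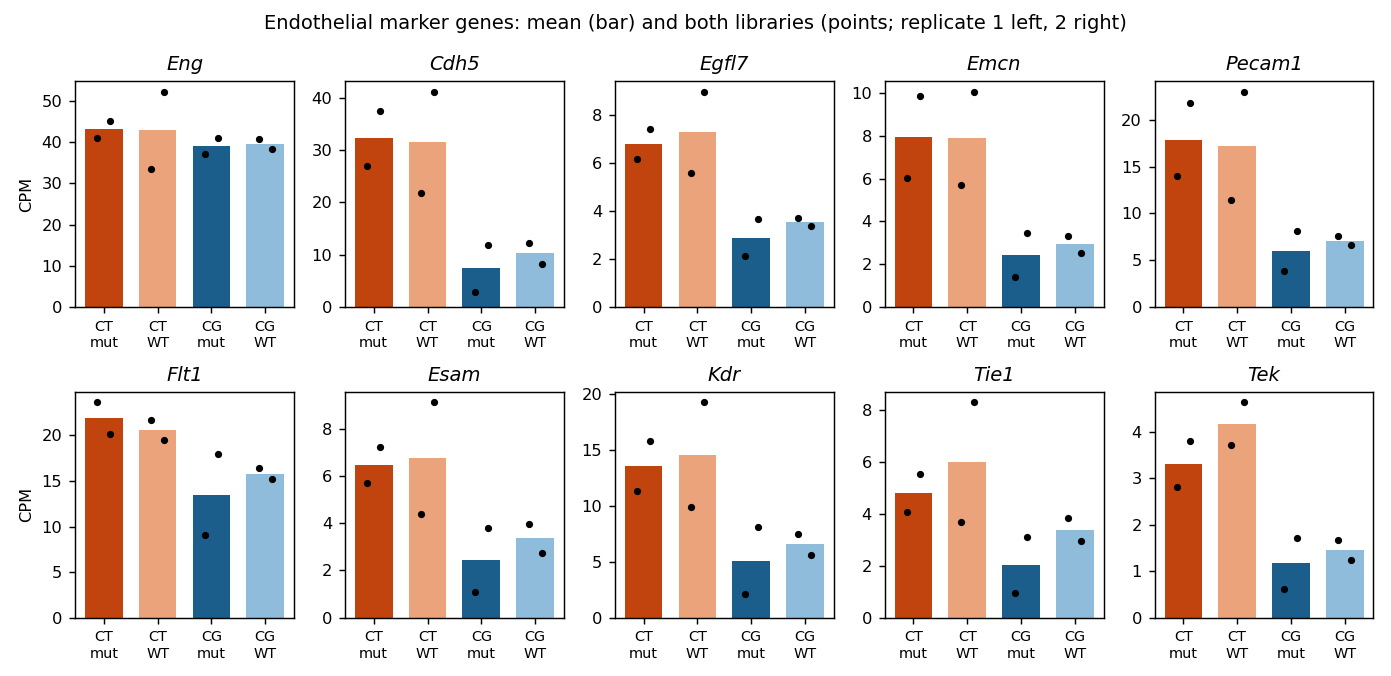
TMM-scaled CPM of the 10 markers on a linear axis, 1 panel a gene with its own scale; bars are means of 2 libraries and points are the libraries, in the order CT mutants, CT wild types, CG mutants and CG wild types. The CT points lie above the CG points for 8 of the 10 genes, the exceptions being Tie1 and Eng, and CG mutant replicate 1 is the lowest point for 9.

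The comparison between the lines, which the design text does not name as a question, gave 5 and 4 markers called as higher in the CT line, and none as lower. In CT mutants 5 of the 10 were higher than in CG mutants by edgeR's quasi-likelihood test at an adjusted p under 0.05: Pecam1, Cdh5, Tek, Emcn and Egfl7. In this comparison 36.1% of all genes tested were called, 17.9% as higher. In CT wild types 4 of the 10 were higher than in CG wild types, namely Pecam1, Tek, Emcn and Egfl7, where 33.7% of all genes were called, 17.0% as higher. No marker was called lower in either, where 18.2% and 16.8% of all genes were, and these comparisons share no library. The fitted log2 fold change was above 0 for 10 of 10 markers in each, with a median of 1.40 among mutants and 1.09 among wild types, beside a median of -0.01 and 0 over all genes, of which 49.2% and 50.2% were above 0. What sets the lines apart other than genotype (animals, collection, plating, sequencing run) is not in the labels, so line and any such difference cannot be told apart.

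Among the junction genes, Cdh5 (Entrez ID 12562, VE-cadherin, the adherens junction cadherin of endothelium) had 27.0 and 37.5 CPM in CT mutants, against 2.95 and 11.9 in CG mutants. In CT wild types it had 21.8 and 41.2 CPM, against 12.3 and 8.22 in CG wild types. All 4 CT libraries lay above all 4 CG libraries. Its log2 fold change was 2.11 ± 0.56 (SE) between the mutants (edgeR adjusted p = 0.0217), the largest of the markers there, and 1.61 ± 0.55 between the wild types, which missed the threshold (edgeR adjusted p = 0.0546). Pecam1 (18613, CD31, an adhesion molecule of endothelium that platelets and leukocytes carry too) had 14.0 and 21.8 CPM in CT mutants, against 3.82 and 8.09 in CG mutants, and 11.4 and 23.0 CPM in CT wild types, against 7.53 and 6.59 in CG wild types. The lines did not overlap, and Pecam1 passed the test in both comparisons, with log2 fold changes of 1.58 ± 0.42 (edgeR adjusted p = 0.0222) and 1.28 ± 0.42 (edgeR adjusted p = 0.0472). Esam (69524, an immunoglobulin-type adhesion molecule of tight junctions) had 5.72 and 7.21 CPM in CT mutants, against 1.08 and 3.78 in CG mutants, and 4.37 and 9.11 CPM in CT wild types, against 3.98 and 2.75 in CG wild types. Its lines did not overlap either, but the lowest CT library stood close to the highest CG one. Its log2 fold changes of 1.40 ± 0.54 and 1.0 ± 0.53 did not pass (edgeR adjusted p = 0.0782 and 0.181).

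Of the VEGF receptors, Kdr (16542, VEGFR2, the main signalling receptor for VEGF-A on endothelium) had 11.3 and 15.8 CPM in CT mutants, against 2.12 and 8.09 in CG mutants. In CT wild types it had 9.88 and 19.3 CPM, against 7.50 and 5.63 in CG wild types. Its lines did not overlap, and its log2 fold changes of 1.40 ± 0.55 and 1.15 ± 0.54 did not pass (edgeR adjusted p = 0.0792 and 0.134). Flt1 (14254, VEGFR1, which binds VEGF-A tightly and signals less) had 23.6 and 20.1 CPM in CT mutants, against 9.06 and 17.9 in CG mutants, and 21.7 and 19.5 CPM in CT wild types, against 16.4 and 15.2 in CG wild types. All CT libraries were above all CG libraries, but CT wild type replicate 2 stood close to CG mutant replicate 2. The log2 fold changes by counts were 0.70 ± 0.27 and 0.38 ± 0.27 and did not pass (edgeR adjusted p = 0.0784 and 0.301).

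Flt1 was also the marker whose deposited FPKM and counts disagreed between the lines. Its FPKM was 5.45 and 4.48 in CT mutants, against 1.3 and 2.82 in CG mutants, and 4.77 and 4.40 in CT wild types, against 2.61 and 2.32 in CG wild types. On log2(FPKM + 1) limma gave a log2 difference of 1.0 between the mutants (adjusted p = 0.0115) and 0.69 between the wild types (adjusted p = 0.0507). Part of this is a shift of all genes in FPKM, whose medians were 0.14 and 0.09. With libraries centred on their medians, an alternative added after the data had been seen, limma gave 0.84 (adjusted p = 0.0153) and 0.58 (adjusted p = 0.0568). The transcript length implied by a count and its FPKM, after removing the shift common to a library's genes, was 4622 and 4874 bases for Flt1 in CT mutants, against 6126 and 6195 in CG mutants. It was 4687 and 4733 bases in CT wild types, against 6087 and 6192 in CG wild types. The CT values averaged 0.769 of the CG values, the lines were far apart, and mutants and wild types of a line lay close together. Of 11629 genes with counts of at least 20 and an FPKM rounding of at most 2.0% in every library, 14 (0.120%) differed at least as far in either direction, and the median log2 ratio was 0.00216. Of the 8 markers that met those limits, the other 7 had ratios between 0.993 and 1.03, Egfl7 having the largest, with its lines also apart, as were those of 11.7% of the genes compared. A gene's implied length changes when the reads are assigned to shorter or longer transcripts, and Flt1 is known to be made both as the membrane receptor and as shorter soluble forms, but which transcripts the reads came from is not in the tables. This contrast was picked after its values were seen and was not tested.

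**Figure D2:**
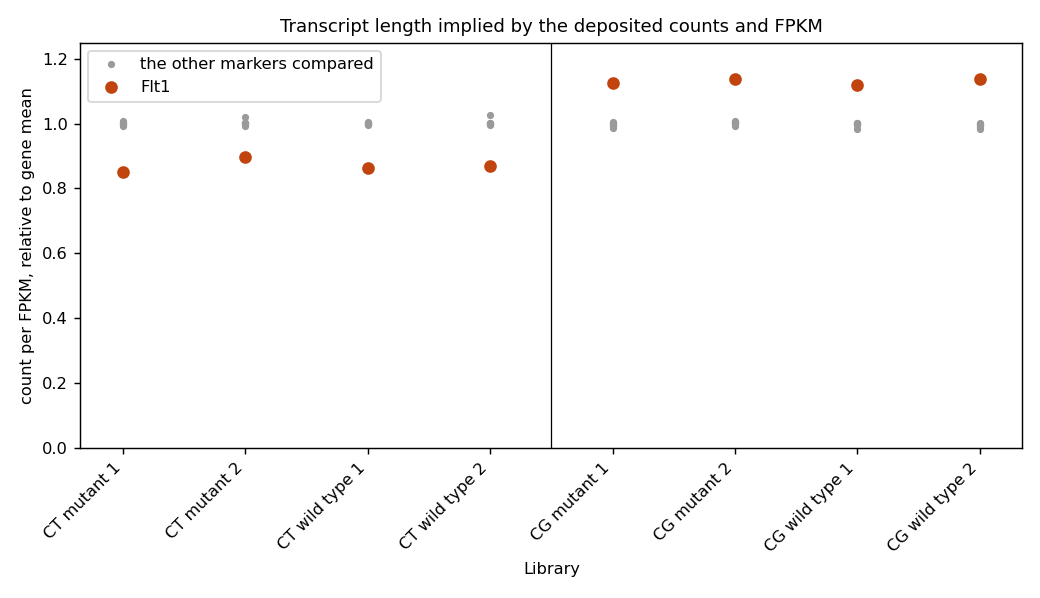
Transcript length implied by the deposited counts and FPKM, divided by each gene's mean over the 8 libraries, for the 8 markers with enough counts; each point is a library, CT left of the line and CG right of it. Flt1 (large points) lies between 0.850 and 0.896 in CT libraries and between 1.12 and 1.14 in CG libraries, while the other 7 markers stay between 0.982 and 1.03.

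Of the Tie receptors, Tek (21687, TIE2, the receptor for angiopoietins) had 2.81 and 3.79 CPM in CT mutants, against 0.623 and 1.72 in CG mutants. It had 3.70 and 4.62 CPM in CT wild types, against 1.67 and 1.24 in CG wild types. Its lines were clearly apart, and it passed in both comparisons, with log2 fold changes of 1.48 ± 0.43 (edgeR adjusted p = 0.0303) and 1.51 ± 0.42 (edgeR adjusted p = 0.0273). These rest on few reads, 86 to 136 counts in a CT library and 15 to 46 in a CG library. Tie1 (21846, an orphan receptor that modulates TIE2) had 4.09 and 5.55 CPM in CT mutants, against 0.956 and 3.13 in CG mutants, and 3.70 and 8.29 CPM in CT wild types, against 3.84 and 2.95 in CG wild types. Its lower CT wild type fell within the range of the CG wild types. The log2 fold changes of 1.23 ± 0.55 and 0.82 ± 0.52 did not pass (edgeR adjusted p = 0.115 and 0.259).

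Emcn (59308, endomucin) had 6.05 and 9.85 CPM in CT mutants, against 1.41 and 3.47 in CG mutants, and 5.71 and 10.1 CPM in CT wild types, against 3.33 and 2.51 in CG wild types. The lines did not overlap. Emcn passed in both comparisons, with log2 fold changes of 1.69 ± 0.46 (edgeR adjusted p = 0.0227) and 1.43 ± 0.45 (edgeR adjusted p = 0.0419). Egfl7 (353156) had 6.18 and 7.41 CPM in CT mutants, against 2.12 and 3.66 in CG mutants, and 5.61 and 8.97 CPM in CT wild types, against 3.69 and 3.39 in CG wild types. The lines did not overlap here either, and Egfl7 passed with log2 fold changes of 1.23 ± 0.32 (edgeR adjusted p = 0.0189) and 1.04 ± 0.31 (edgeR adjusted p = 0.0351).

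Eng (13805, endoglin, which stromal cells and chondrocytes can also express) went with the others least. It had 41.0 and 45.2 CPM in CT mutants, against 37.1 and 41.0 in CG mutants, and 33.5 and 52.2 CPM in CT wild types, against 40.8 and 38.4 in CG wild types. The wild type groups overlapped, with 1 CT library below and 1 above both CG libraries. The log2 fold changes were 0.14 ± 0.19 and 0.12 ± 0.19 (edgeR adjusted p = 0.578 and 0.661). Eng made up 26.0% to 28.9% of the markers' summed CPM in the CT libraries and 39.9% to 60.6% in the CG libraries. Without Eng, the other 9 markers summed to 101 and 129 CPM in CT mutants, against 24.1 and 61.7 in CG mutants, and to 87.9 and 144 CPM in CT wild types, against 60.2 and 48.5 in CG wild types.

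**Figure D3:**
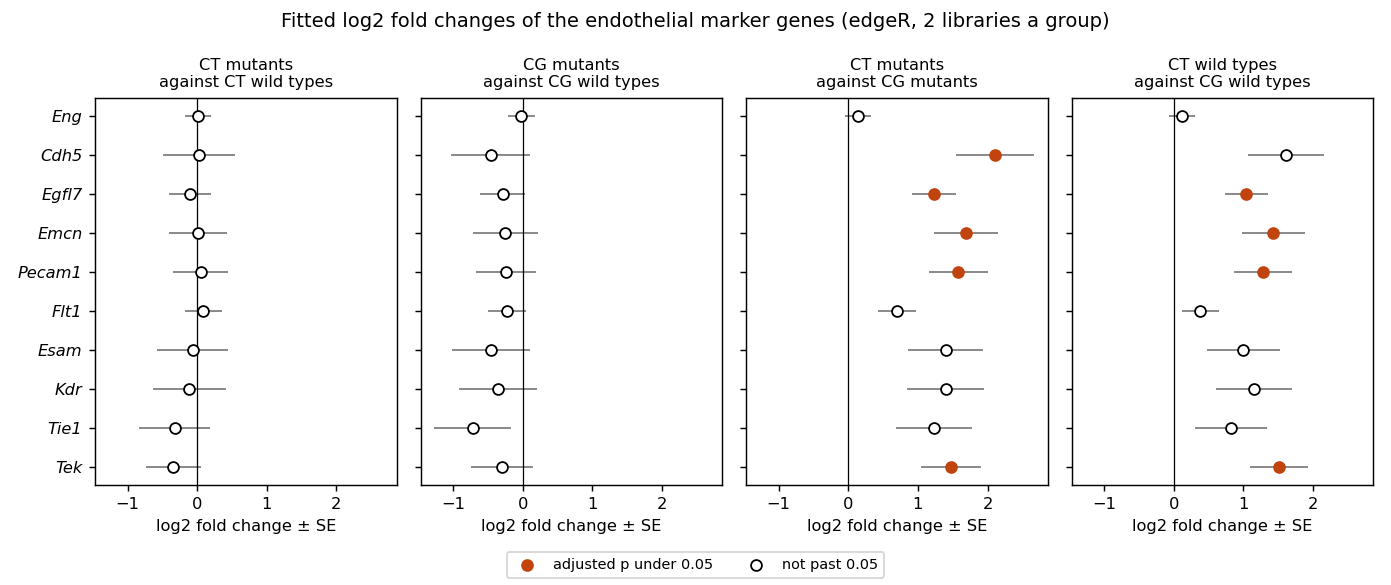
Fitted log2 fold changes of the 10 markers (points) with standard errors (lines) in 4 comparisons on 1 common axis; filled points passed an adjusted p of 0.05. The line comparisons hold 5 and 4 filled points, all to the right of 0, and the mutant comparisons hold none.

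Counted by library, the 2 CT mutants lay above the 2 CG mutants for 10 of 10 markers, where 35.5% of genes tested did so and 35.6% lay below. For Eng the libraries barely parted, at 41.02 CPM in the lower CT mutant and 40.95 in the higher CG mutant. Between wild types the CT libraries lay above for 8 of 10, where 35.7% of genes lay above and 35.5% below, Tie1 and Eng being the exceptions. All 4 CT libraries lay above all 4 CG libraries for the same 8, where 23.7% of genes lay above and 23.1% below. Averaging the line difference over mutants and wild types, a contrast added after the data had been seen, called 8 of the 10, with 26.1% of all genes called higher. The largest averaged values were 1.86 ± 0.39 for Cdh5 (edgeR adjusted p = 0.00521), 1.56 ± 0.32 for Emcn (0.00453), 1.5 ± 0.30 for Tek (0.00417) and 1.43 ± 0.30 for Pecam1 (0.00483). Tie1, at 1.02 ± 0.38 (edgeR adjusted p = 0.0518), and Eng, at 0.13 ± 0.13 (edgeR adjusted p = 0.437), were not called.

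The counts of markers called rested on single libraries. Among mutants, 5 became 1 without CG mutant replicate 1, 9 without CG mutant replicate 2, 2 without CT mutant replicate 1 and 0 without CT mutant replicate 2. Among wild types, 4 became 0 without either CG wild type or without CT wild type replicate 2, 1 without either CT mutant and 6 without either CG mutant. Over all genes the calls in these 4 fits between mutants were 2908 to 4701, against 5184 with every library, and in these 7 between wild types 2137 to 5324, against 4843. A group left with 1 library is assumed in these fits to vary like the other groups. Direction was steadier: across all alternatives run, 1 value of the 10 markers in the line comparisons turned below 0, that of Eng between wild types without CT wild type replicate 2 (-0.24).

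The deposited comparisons of the authors covered 7 of the markers, all but Flt1, Tie1 and Eng, among 2655 genes. Those are part of the 18501 genes, so no share over all genes stands beside the q-values. The q-values rest on the same libraries as the fits above. In the authors' deposited table the log2 ratio of CT to CG controls was 1.62 for Cdh5 (q-value 1.39e-07), 1.29 for Pecam1 (q-value 0.000198), 1.43 for Emcn (q-value 0.000576), 1.15 for Kdr (q-value 0.00170), 1.52 for Tek (q-value 0.00252), 1.04 for Egfl7 (q-value 0.0111) and 1.0 for Esam (q-value 0.0459). For CT mutants over CG mutants the authors' deposited table gave ratios close to those fitted here, 1.24 to 2.13 on the log2 scale, but Cdh5 (q-value 0.0844), Kdr (q-value 0.301) and Tek (q-value 0.0541) were above 0.05. Cdh5 had the smallest q-value of the markers between controls in the authors' deposited table and missed the edgeR threshold here.

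Neither mutation changed a marker past the threshold. In CT mutants against CT wild types edgeR called 0 of the 10, and 0.00696% of all genes, which is 1 gene. Without adjustment 734 genes had p under 0.05, none of them a marker, since the smallest unadjusted p among the 10 was 0.422, for Tek, and DESeq2 called 0 markers too. The log2 fold changes lay between -0.34 ± 0.40 for Tek and 0.09 ± 0.27 for Flt1, with 5 above and 5 below 0 and a median of -0.03. The smallest edgeR adjusted p of a marker was 0.988. Cdh5 averaged 32.2 ± 7.37 CPM in CT mutants and 31.5 ± 13.7 in CT wild types (SD, n = 2 each), Pecam1 17.9 ± 5.54 and 17.2 ± 8.17 CPM in the same groups, and Emcn 7.95 ± 2.69 and 7.89 ± 3.08 CPM. No marker's CT mutant libraries lay wholly above or below its CT wild types, while 17.2% of genes lay above and 16.3% below.

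In CG mutants against CG wild types edgeR again called 0 of the 10, and 0.00696% of all genes, which is 1 gene. DESeq2 called 0 of the markers, and 1633 genes but none of the 10 had an unadjusted edgeR p under 0.05, the smallest of a marker being 0.228 for Tie1. All 10 fitted changes were below 0, between -0.72 ± 0.55 for Tie1 (edgeR adjusted p = 0.647) and -0.02 ± 0.19 for Eng (edgeR adjusted p = 0.978), with a median of -0.30, beside 0 over all genes. Cdh5 averaged 7.41 ± 6.31 CPM in CG mutants and 10.3 ± 2.89 in CG wild types (SD, n = 2 each), so its groups differed by less than the spread within the mutants. No marker was separated by library, against 23.2% of genes above and 22.5% below. The sign rested on CG mutant replicate 1: without it the median was 0.19 and 9 of 10 markers, all but Tie1, were above 0, and without CG mutant replicate 2 the median was -1.13.

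The effect of the CT mutation minus that of the CG mutation was called for 0 of the 10 markers, and for 0.0209% of all genes (3 genes, 0.0139% with a positive and 0.00696% with a negative value). DESeq2 called 0 markers, and 687 genes had an unadjusted edgeR p under 0.05, none of them a marker, the smallest being 0.436 for Flt1. The values lay between -0.03 ± 0.61 for Tek and 0.50 ± 0.77 for Cdh5, with 9 of 10 above 0 and a median of 0.28 (smallest edgeR adjusted p = 0.976). Standard errors of 0.26 to 0.77 on the log2 scale limit what these differences can show.

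The markers shifted together between the 2 replicates of a group. CG mutant replicate 1 had the lowest CPM of the 8 libraries for 9 of the 10, Eng excepted, and CT wild type replicate 2 the highest for 9, Flt1 excepted. The ratio of replicate 2 to replicate 1 had a median of 2.61 in CG mutants, with Cdh5 at 4.02 and Eng at 1.10, and all 10 markers above 1. Its median was 1.82 in CT wild types and 1.35 in CT mutants, where 9 of 10 were above 1, and 0.762 in CG wild types, where none was. Over all genes the median of this ratio was near 1 in every group (log2 between -0.01 and 0). Y-linked Ddx3y had 3512 and 30 counts in CT mutants, 3669 and 10 in CT wild types, 2231 and 2360 in CG mutants and 2 and 2511 in CG wild types, replicate 1 first. In the 3 groups where it differed, 9 of 10, 9 of 10 and 10 of 10 markers were higher in the library with few Ddx3y counts. In CG mutants both libraries had it, and they showed the widest gap. The part of sex in these gaps was not tested, and with a term for sex 4 markers were called between mutants and 5 between wild types. Over all 14359 genes that term gave 4343 and 4612 calls, 2124 and 2313 of them higher.

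Other endothelial genes were read from a list of 32, of which 31 were tested and Gpihbp1 was not. Among mutants 12 were higher in the CT line and 1 lower, and 25 were above 0, with a median log2 fold change of 1.02. Among wild types 8 were higher and 1 lower, and 26 were above 0, with a median of 0.70. These 12 and 8 of 31 stand beside the 17.9% and 17.0% of all genes called higher, but the list was chosen with earlier results of these data known. Cldn5, the claudin of endothelial tight junctions, had 7.55 and 10.5 CPM in CT mutants, against 2.54 and 2.33 in CG mutants, and 6.91 and 11.2 CPM in CT wild types, against 2.90 and 2.67 in CG wild types. It rose by 1.89 ± 0.28 (edgeR adjusted p = 0.00199) and 1.70 ± 0.28 (edgeR adjusted p = 0.00350) on the log2 scale, with no overlap between lines. Esm1, a proteoglycan that endothelial tip cells secrete, had 72.2 and 52.8 CPM in CT mutants, against 24.3 and 34.5 in CG mutants, and rose by 1.09 ± 0.20 there and by 1.51 ± 0.20 between wild types (edgeR adjusted p = 0.00456 and 0.00153). Rhoj, a small GTPase found in endothelium, was the gene that fell in both, by 0.75 ± 0.13 each (edgeR adjusted p = 0.00338 between mutants and 0.00411 between wild types), with 31.4 and 36.8 CPM in CT mutants, against 59.6 and 55.0 in CG mutants. Neither mutation changed any of the 31 genes past the threshold, with medians of -0.03 in the CT line and -0.13 in the CG line.

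**Figure D4:**
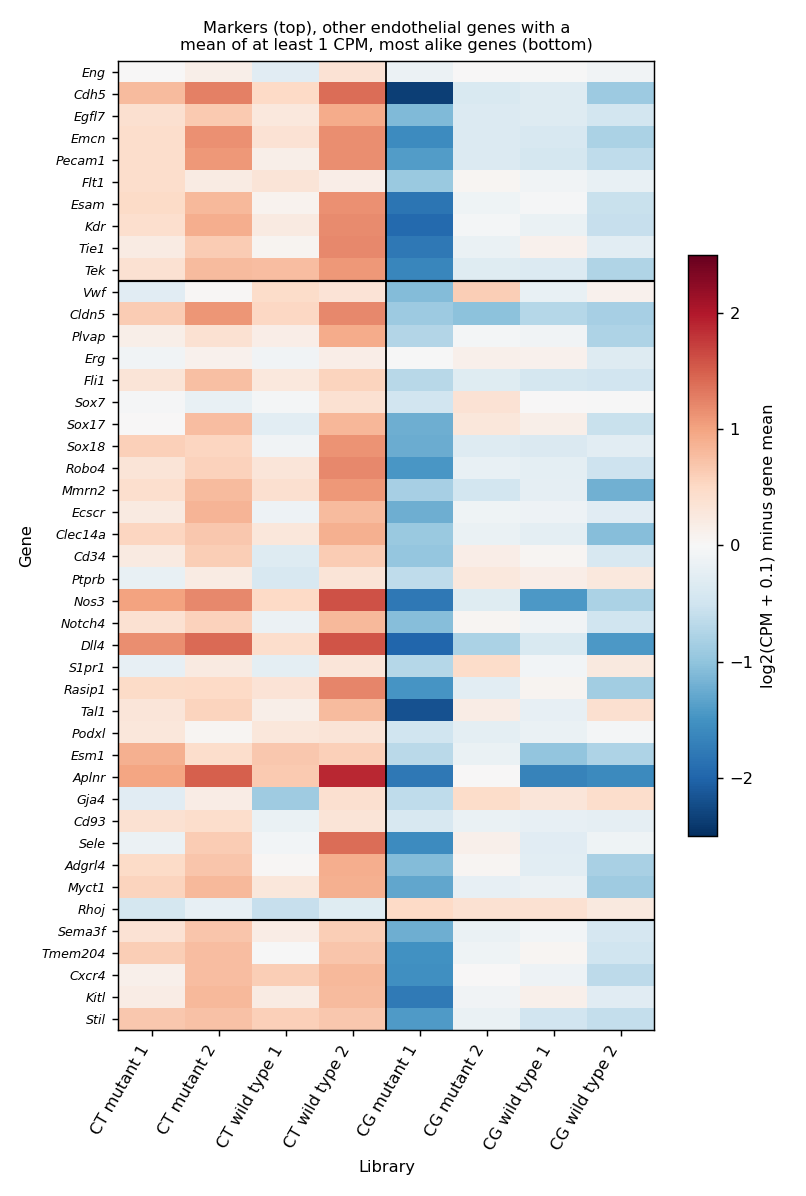
Colour shows log2(CPM + 0.1) minus each gene's mean over the 8 libraries for the 10 markers, 29 other endothelial genes with a mean of at least 1 CPM and the 5 most alike genes outside the lists; columns are libraries, CT left of the line and CG right. CG mutant replicate 1 is the deepest blue for 9 of the 10 markers, and Rhoj is blue in the CT line and red in the CG line.

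The genes most like the markers across the 8 libraries were sought by the root mean square difference between a gene's centred log2 CPM and the mean of the 10 markers, whose own centred values were 0.40 and 0.77 in CT mutants, 0.25 and 0.98 in CT wild types, -1.48 and -0.20 in CG mutants and -0.20 and -0.52 in CG wild types. Egfl7 (0.156), Esam (0.169) and Pecam1 (0.172) lay closest to that mean, and Flt1 (0.428), Cdh5 (0.451) and Eng (0.642) farthest. Among 12009 genes outside every list, with a median of 0.761, the closest were Sema3f (0.171), Tmem204 (0.182), Cxcr4 (0.201), Kitl (0.210) and Stil (0.222). Sema3f had 6.28 and 7.92 CPM in CT mutants, against 2.04 and 4.31 in CG mutants, and 5.54 and 7.51 CPM in CT wild types, against 4.64 and 3.59 in CG wild types. Cxcr4 had 6.54 and 10.3 CPM in CT mutants, against 1.99 and 6.03 in CG mutants, and 9.28 and 10.6 CPM in CT wild types, against 5.47 and 3.75 in CG wild types. Both were highest in the CT line and lowest in CG mutant replicate 1, which follows from picking them for likeness to the markers' mean. Within the other lists Robo4 (0.112), Myct1 (0.161), Ecscr (0.201), Adgrl4 (0.212) and Rasip1 (0.216), all of them other endothelial genes, were closest.

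Ligands, co-receptors and targets of the VEGF, angiopoietin and endoglin pathways made a list of 21 genes, of which 20 were tested and Gdf2 was not. Between mutants 4 were higher and 3 lower in the CT line, with a median of 0.11 on the log2 scale, and between wild types 5 were higher and 3 lower, with a median of 0.17. Of all genes, 17.9% were called higher and 18.2% lower between mutants, and 17.0% and 16.8% between wild types. The list's lower calls, and its higher calls between mutants, were near these shares, so the genes below are examples only. Ephb4, the receptor tyrosine kinase of venous endothelium, had 49.9 and 52.6 CPM in CT mutants, against 23.3 and 27.5 in CG mutants, and rose by 1.01 ± 0.12 there and 1.0 ± 0.12 between wild types (edgeR adjusted p = 0.000911 and 0.00111). Angptl4, a secreted angiopoietin-like protein, fell by 1.64 ± 0.20 between mutants and by 1.39 ± 0.20 between wild types (edgeR adjusted p = 0.000940 and 0.00206). Apln, the ligand apelin, fell by 2.69 ± 0.29 between mutants (edgeR adjusted p = 0.000602), and Tgfbr2, a receptor for transforming growth factor beta, rose by 0.66 ± 0.14 between wild types (edgeR adjusted p = 0.0109). Vegfa, the ligand of Kdr and Flt1, had 387.9 and 347.7 CPM in CT mutants and 603.9 and 382.8 in CT wild types, with a difference in log2 of -0.42 ± 0.21 (edgeR adjusted p = 0.958). The list's summed CPM did not separate the lines, at 2698 to 3592 in CT libraries and 2873 to 3638 in CG libraries. No gene of the list passed in either mutant comparison, with medians of -0.07 in the CT line and -0.23 in the CG line.

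Markers of some other cell types differed between the lines as well. Erythroid and leukocyte genes were called higher, and pericyte and smooth muscle genes lower, more often than all genes, of which 17.9% were called higher and 18.2% lower between mutants and 17.0% and 16.8% between wild types. The calls in platelet genes, and in chondrocyte genes between mutants, were near those shares. Erythroid genes (9, hemoglobins among them) summed to 1004 and 1412 CPM in CT mutants and 2705 and 1582 in CT wild types, against 2.99 and 11.6 in CG mutants and 11.0 and 16.9 in CG wild types, with Hbb-b2 at 0 in all 4 CG libraries. All 9 were higher in CT mutants and 7 in CT wild types, though hemoglobin copies share reads and are uncertain one by one. Of 14 tested macrophage and leukocyte genes (18 listed), 6 were higher and 0 lower between mutants, and 8 were higher and 1 lower between wild types, with medians of 1.52 and 1.83. In each comparison 13 of the 14 were above 0. Their summed CPM was 390.9 to 476.7 in CT libraries and 336 to 577.4 in CG libraries. Most of it was Cd14, which went the other way, with 241.5 to 315.1 CPM in CT libraries and 317.2 to 526.7 in CG libraries. This sum thus says little about the other leukocyte genes. Platelet genes, of interest since platelets carry Pecam1, summed to 14.6 to 19.8 CPM in CT libraries and 10.8 to 22.1 in CG libraries, and of 6 tested (8 listed) 0 were higher and 1 lower in each comparison. Pericyte and smooth muscle genes, from the cells that wrap vessels, summed to 1446 to 1578 CPM in CT libraries and 2284 to 2990 in CG libraries. Most of each sum was Cspg4, with 1287 to 1395 CPM in CT libraries and 1919 to 2688 in CG libraries. The sums thus say little about the other genes of the list. Of 11 tested, 0 were higher and 5 lower in each comparison. Acta2 fell by 1.06 ± 0.21 between mutants and 1.92 ± 0.22 between wild types (edgeR adjusted p = 0.00721 and 0.000850).

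Of 5 lymphatic endothelial genes, 1 was higher and 1 lower between mutants and 1 higher and 2 lower between wild types. The sums of 15.6 to 19.0 CPM in CT libraries and 72.0 to 238.6 in CG libraries were carried by Reln. Reln had 11.1 and 13.2 CPM in CT mutants, against 234.4 and 84.2 in CG mutants. Of the other lymphatic genes, Lyve1 stayed at 0.688 CPM or less and Ccl21a at 0.670 CPM or less in every library. Prox1 had 0.588 to 3.19 CPM and Flt4 2.285 to 3.485 CPM over the 8 libraries. Of 16 chondrocyte genes 4 were higher and 2 lower between mutants, and 7 higher and 2 lower between wild types. Of 10 fibroblast and perichondrial genes 4 were higher and 2 lower, and 3 higher and 2 lower, and they summed to 2440 to 3346 CPM in CT libraries and 993.1 to 2001 in CG libraries. Of 6 tested skeletal muscle genes (8 listed) 0 were higher and 1 lower, and 1 higher and 3 lower. Of all genes 17.9% were called higher and 18.2% lower between mutants, and 17.0% and 16.8% between wild types. The higher calls of fibroblast genes in both, and of chondrocyte genes between wild types, were above those shares. So were the lower calls of lymphatic and muscle genes between wild types, in lists of 5 and 6 genes. In CG mutant replicate 1, the library lowest in endothelial markers, the chondrocyte sum was the highest of the CG libraries. Its fibroblast, skeletal muscle, platelet, leukocyte and erythroid sums were the lowest of the 4 CG libraries. The pericyte and smooth muscle sum, carried by Cspg4, and the lymphatic sum, carried by Reln, were instead its highest of the CG libraries, at 2990 and 238.6 CPM. None of these lists had a gene called in either mutant comparison or in the difference of mutant effects. The part of these cell types in the endothelial differences was not tested.

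**Figure D5:**
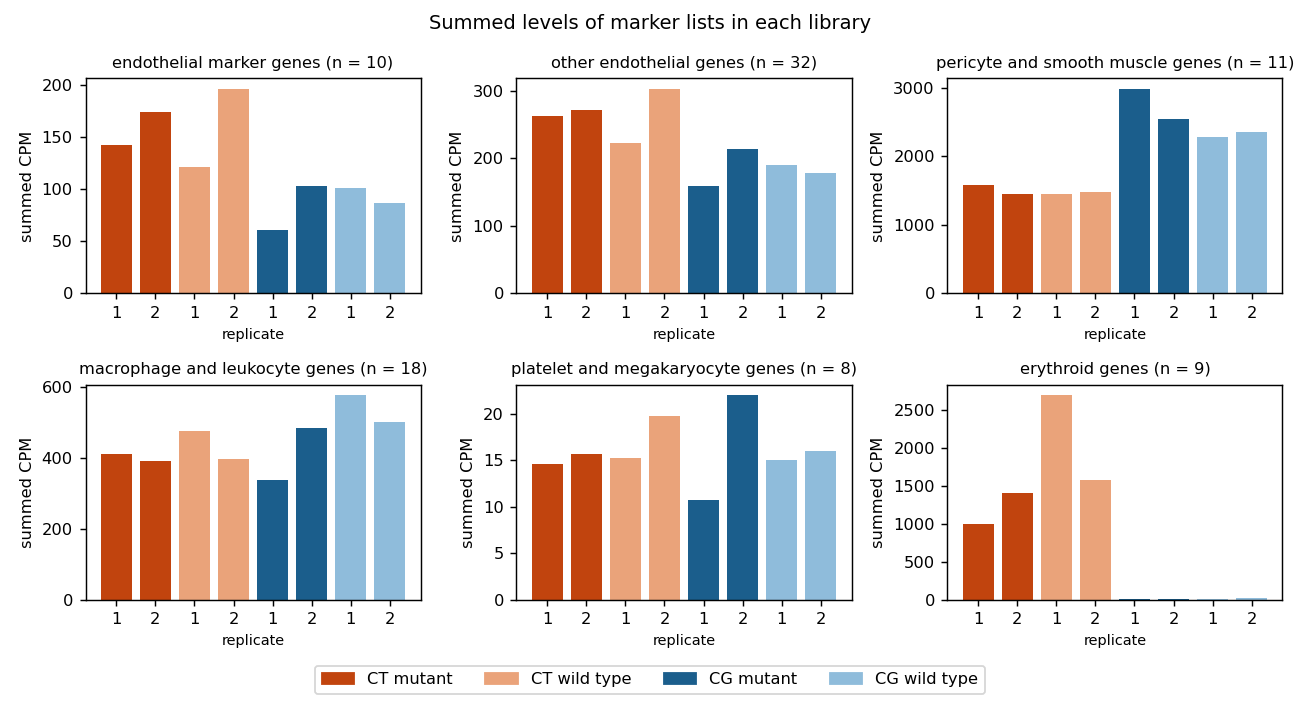
Summed TMM-scaled CPM of 6 gene lists in each library (bars, 1 a library, axis from 0), with the CT groups left of the CG groups. The endothelial sums are higher in the CT line (121.4 to 196.2 against 61.3 to 102.7 CPM for the 10 markers), as are the erythroid sums. The pericyte and smooth muscle sums, carried by Cspg4, are lower. The platelet sums overlap, as do the leukocyte sums, which are carried by Cd14, a gene lower in the CT libraries.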

How the data were processed

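RNA of plated rib cartilage cells was sequenced on DNBSEQ, per the series design text, and the processing notes of the submitters list HISAT2 2.0.4 with build mm9. For the read counter and its annotation, the sources used here say nothing. Per the file headers, the authors deposited estimated counts, not normalized, with FPKM for 18501 genes, and a table of log2 ratios and q-values for 2655 genes, made with a tool not named there. Fractional estimated counts, 2282 to 2518 a library, were rounded. Symbols of 24 genes that had become dates were restored from Entrez IDs, 18381 of which matched RefSeq. A further deposited table of 3 of the libraries was not used.

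All 8 libraries entered 1 fit of 4 group means with 4 residual degrees of freedom (R 4.3.3, edgeR 4.0.16, TMM, filterByExpr, quasi-likelihood F test, Benjamini-Hochberg threshold 0.05 over 14359 genes). SE is the absolute log2 fold change over the square root of F. Alternatives used DESeq2 1.42.0, limma 3.58.1 on log2(FPKM + 1) or log2(FPKM + 0.1), upper-quartile scaling, no filter, a sex term (Ddx3y above 100 counts) and left-out libraries. All 10 markers are named, with the 5 most alike genes, and examples from the other lists were taken from the 3 smallest p of a list in a comparison. The levels of Hbb-b2, Lyve1, Ccl21a, Prox1, Flt4, Cd14 and Cspg4 were added after they were seen. The members and lists were chosen with earlier results of these data known. Differences in sequence depth were small, and replicates of a group differed by more than sampling noise (chi-square per degree of freedom 20.4 to 57.7).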

Additional observations from a re-analysis of the deposited data

How the results depend on the processing

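In both mutant comparisons and in the difference of mutant effects, 0 markers were called under every alternative run, left-out libraries included. Between CT and CG mutants the 5 markers called became 8 with DESeq2, 8 with limma on log2(FPKM + 1), 8 with log2(FPKM + 0.1) and 8 with the averaged line difference, which was added after the data had been seen. Over all genes the same settings called 2422, 4040, 4088 and 3744 as higher, against 2564. Between CT and CG wild types 4 became 1 with limma on log2(FPKM + 1) without a filter, where 2957 of all genes were called higher, against 2436, and 8 with the averaged difference, which called 7460 of all genes, against 4843. Leaving out 1 library at a time gave 0 to 9 markers between mutants and 0 to 6 between wild types, and 2908 to 5210 and 2137 to 5324 of all genes. For the effect of the CG mutation, 1 gene of all called became 216 with DESeq2, 13 without a filter, 2 with a sex term, 4, 3 and 0 with limma (pseudocount 1, pseudocount 0.1, no filter), 3 with FPKM centred on library medians, an alternative added after the data had been seen, and 1 to 522 with a library left out (522 without CG mutant replicate 2). For the CT mutation, 1 became 20 with DESeq2, 2 without a filter, 3 in a fit of its own 4 libraries, 3 and 2 with limma (filter and none), 3 with centred FPKM, and 0 to 4 with a library left out. For the difference of effects, 3 became 38 with DESeq2, 5 without a filter, 1 with unfiltered limma, and 1 to 97 with a library left out.

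With FPKM the median log2 difference of all genes between the lines was 0.14 and 0.20 (mutants, pseudocounts 1 and 0.1) and 0.09 and 0.13 (wild types), or 0.04 and 0.02 without a filter (pseudocount 1), and the share of calls that were higher was 72.9% and 67.5% with log2(FPKM + 1), against 49.5% and 50.3% by counts. With centred FPKM it was 47.9% and 49.3%, and 6 and 4 markers were called, where 2593 and 2414 of 14359 genes were called higher. The deviations of same-numbered libraries had a correlation of 0.248 between CT mutants and CT wild types, where replicate 1 had the higher Ddx3y in both, and of -0.089 to 0.019 between the other groups. The labels tie the numbers to nothing, so they were not taken as a pairing. With the replicate block 6 markers were called between mutants, 4 between wild types, and 3 genes of all for the CG mutation. Between the lines the block called 2356 of 14359 genes as higher among mutants and 2188 among wild types.

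In the mutant comparisons the sign under all alternatives, left-out libraries included, was kept by Tie1 for the CG mutation (-1.82 to -0.12) and Tek for the CT mutation (-0.57 to -0.14), neither called, and by no other marker. For the CG mutation a sex term turned Pecam1 to 0.07, Emcn to 0.09 and Eng to 0.12. For the CT mutation Esam was 0.01 with the block, 0.01 with sex and 0.03, 0.06 and 0.03 with limma (pseudocount 1, 0.1, no filter). For the difference a sex term gave Kdr -0.04, Emcn -0.07 and Eng -0.09, and Tek was 0.05 with the block and 0.07 with log2(FPKM + 0.1). The causes were not tested. With a library left out, the CG mutation effect ranged for Pecam1 from -0.88 to 0.19, Cdh5 -1.80 to 0.21, Kdr -1.63 to 0.30, Flt1 -0.80 to 0.18, Tek -1.21 to 0.24, Emcn -1.05 to 0.24, Eng -0.09 to 0.05, Esam -1.64 to 0.16 and Egfl7 -0.74 to 0.05. The CT mutation effect ranged for Pecam1 from -0.36 to 0.64, Cdh5 -0.35 to 0.56, Kdr -0.51 to 0.46, Flt1 -0.03 to 0.20, Tie1 -0.78 to 0.38, Emcn -0.38 to 0.48, Eng -0.28 to 0.37, Esam -0.50 to 0.56 and Egfl7 -0.40 to 0.28. The difference ranged for Pecam1 from -0.15 to 0.93, Cdh5 -0.18 to 1.82, Kdr -0.41 to 1.51, Flt1 -0.10 to 0.88, Tek -0.58 to 0.87, Tie1 -0.20 to 1.5, Emcn -0.24 to 1.05, Eng -0.26 to 0.38, Esam -0.23 to 1.57 and Egfl7 -0.15 to 0.63. The line difference of Eng between wild types ranged from -0.24 to 0.40. DESeq2 gave no adjusted p for Tek in the CG comparison. Low counts limit Tek, Esam, Tie1 and Emcn in the CG line, where CG mutant replicate 1 had 15 to 34 counts of each.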
